A study of Mus musculus with 6 samples.

Results

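The connexins Cx43, Cx26, Cx31.1 and Cx30 (genes Gja1, Gjb2, Gjb5 and Gjb6) and pannexin 1 (Panx1), channel proteins of skin epithelium, were examined in cultured bulge cells of mouse vibrissa follicles. They were taken by name, and all probe sets listed under exactly 1 of these symbols on the Mouse Genome 430 2.0 array were read, which gave 5 of 18193 genes and 10 of 45101 probe sets. Gja1 had 6 probe sets and the others 1 each. For each of 3 experiments, epithelial cells of the bulge were taken from mice aged 7 to 8 weeks, split into an NFFSE and an NFFS culture and kept in 1% atelocollagen gel during 6 days. Noggin, FGF-7, FGF-10 and the hedgehog agonist SAG (each 50 ng/ml) were in both media, and EGF (50 ng/ml) was in NFFSE medium alone, so that the comparison asks what differs when EGF is left out. There were 3 arrays for each medium, labelled as biological replicates, and the strain and any pooling of mice for the arrays are not given in the sources used here.

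Connexin subunits assemble into a hemichannel, and hemichannels of neighboring cells dock to make a gap junction channel, through which ions and small metabolites pass between cells. The subunit that a cell makes sets which channels it can form. In skin, Cx43 is the widespread connexin of basal and spinous keratinocytes and is also made by fibroblasts. Cx26 and Cx30 are known from hair follicles, palms and soles and from epidermis that is hyperproliferative or wounded, and Cx31.1 from stratified epithelium. Pannexin 1 forms single-membrane channels that release ATP and does not usually build gap junctions.

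The values are intensities on a linear scale, with each array already scaled by the authors, and differences are NFFSE minus NFFS on the log2 scale. The threshold for a call was an adjusted p of 0.05 in limma, in which the spread was allowed to follow the signal (intensity trend), with Benjamini-Hochberg adjustment over all genes. Errors after ± are SDs over the n = 3 arrays of a medium. The epithelial identity of the cultures was checked on 8 markers, of which Krt5 and Trp63 were bright in both media. Their summed signal was 119406 to 138346 with EGF and 108464 to 123680 without it, with Cd34, Epcam, Itga6 and Krt14 higher and Krt15 lower in NFFSE. A set of 10 fibroblast and dermal papilla genes held 4 that were lower in NFFSE (Sparc, Thy1, Col1a2 and Vim) and 0 that were higher. Among all genes, 15.2% were called lower and 11.0% higher. Pdgfra (log2 difference 1.40), Lum (0.39), Col1a1 (0.28) and Col3a1 (0.062) of this set lay the other way and were not called. Pdgfrb (-0.48) and Dcn (-0.85) were not called either. The sum over this set was 2679 to 2762 in NFFSE against 6540 to 7690.2 in NFFS, and most of it was Sparc (means of 2215 and 6331), while the means of Col1a1 and Col3a1 lay between 30.4 and 41.0. Acta2 was lower among 5 markers of smooth muscle and pericytes, whose sum was 158 to 299.6 in NFFSE against 416 to 589 in NFFS. The Acta2 means were 146 in NFFSE and 421 in NFFS, while those of Des, Rgs5, Myh11 and Cnn1 lay between 5.54 and 51.7. No marker of melanocytes, leukocytes, endothelium or Schwann cells passed the test. As a sign of RNA quality, Gapdh control probe sets at the 3' end minus those at the 5' end gave -0.37 ± 0.011 on the log2 scale in NFFSE against -0.62 ± 0.017 in NFFS (p = 0.1, two-sided exact permutation test, which cannot go lower with 3 arrays a medium). For the Actb control probe sets this value was 0.27 ± 0.019 in NFFSE and 0.33 ± 0.059 in NFFS (exact p = 0.3). The part of these shifts in the results on connexins was not tested.

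The starts of 3 of these genes are shown because Gjb2 and Gjb5 were the members that rose and Gja1 was not called. Each sequence is the 250 bases before the RefSeq start site, 5′ to 3′ along the gene, in the build GRCm38.p6. Capitals mark every match, on either strand, to TGANTCA, the letters that AP-1 factors bind, to CACCC, read GGGTG on the other strand, a box bound by Krüppel-like factors, and to GGGCGG, read CCGCCC on the other strand, the GC box of Sp1.
Gjb2, chr14:57104703-57104952, minus strand: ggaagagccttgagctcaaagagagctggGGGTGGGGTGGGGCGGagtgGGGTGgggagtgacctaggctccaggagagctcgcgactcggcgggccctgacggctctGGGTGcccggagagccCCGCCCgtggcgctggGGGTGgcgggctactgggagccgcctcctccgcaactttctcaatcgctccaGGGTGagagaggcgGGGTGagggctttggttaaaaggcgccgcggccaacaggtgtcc
Gjb5, chr4:127358165-127358414, minus strand: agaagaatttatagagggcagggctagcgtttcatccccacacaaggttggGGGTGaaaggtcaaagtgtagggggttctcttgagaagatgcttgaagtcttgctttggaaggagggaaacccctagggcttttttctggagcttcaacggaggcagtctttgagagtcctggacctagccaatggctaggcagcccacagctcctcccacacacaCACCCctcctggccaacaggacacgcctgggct
Gja1, chr10:56377050-56377299, plus strand: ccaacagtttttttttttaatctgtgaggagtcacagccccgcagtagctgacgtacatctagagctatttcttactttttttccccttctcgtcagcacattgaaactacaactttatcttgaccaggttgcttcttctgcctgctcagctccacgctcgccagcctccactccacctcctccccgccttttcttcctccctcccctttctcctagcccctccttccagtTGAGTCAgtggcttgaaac
The Gjb2 stretch held 7 matches to CACCC and 2 to GGGCGG, with 69.2% of G and C bases. The Gjb5 stretch held 2 matches to CACCC and 54.4% of G and C bases, and that of Gja1 held 1 match to TGANTCA, beginning 19 bases before the start, and 50% of G and C bases. Of 32851 stretches of the same length in the same table, 52.0% held CACCC, 32.7% held GGGCGG and 6.75% held TGANTCA, so that a match to CACCC was common. These shares count any stretch with 1 match or more. The number of matches in a stretch and its share of G and C bases were not set against those of the 32851 stretches. For the members not shown, the Gjb6 stretch held 1 match to CACCC and 56.8% of G and C bases. That of Panx1 held 0 matches to any of these motifs and 59.6% of G and C bases. The motifs were chosen with the values known, and a link between them and the signals was not tested. In the RefSeq gene order, Gjb2 lies between Gja3 and Gjb6 among protein-coding genes.

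Gjb2, which encodes Cx26, was the member that differed most between the media. Its signal was 10611, 12589 and 12499.6 in NFFSE and 4626, 3902 and 3147 in NFFS. The lowest NFFSE array lay far above the highest NFFS array. The means were 11900.1 ± 1117 and 3892 ± 739, so that Gjb2 was 3.09-fold higher in NFFSE (95% interval 2.47 to 3.86). On the log2 scale this was 1.63 with an SE of 0.14 (adjusted p = 3.1e-05, limma). This call was made under all 15 alternative settings, with log2 differences of 1.48 to 1.83. In these bulk cultures, a larger share of cells making the RNA and more RNA per cell cannot be told apart.

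Gjb5, which encodes Cx31.1, was also higher in NFFSE. Its signal was 518, 462 and 400.2 in NFFSE and 268, 341 and 203 in NFFS, with no overlap between the media. The log2 difference was 0.79 (SE 0.21, 95% interval 0.33 to 1.25, adjusted p = 0.018, limma), a 1.73-fold difference. The call ended without NFFSE replicate 1 (adjusted p = 0.071, limma), NFFSE replicate 2 (0.063) or NFFS replicate 3 (0.058), with a log2 difference that stayed at 0.60 or above. Gjb2 and Gjb5 were thus 2 of the 5 members called higher, beside 11.0% of all genes, and 0 members were called lower, beside 15.2% of all genes. Over probe sets, 2 of the 10 were called higher, beside 7.69% of all probe sets.

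Gjb6 encodes Cx30 and is the neighbor of Gjb2. Its signal was 1255, 1323 and 1360.1 in NFFSE and 1238, 1081 and 776 in NFFS. Every NFFSE array was above every NFFS array, though the lowest NFFSE and the highest NFFS array were close, and the NFFS arrays were spread more widely (SD 235) than the NFFSE arrays (SD 53.1). The log2 difference of 0.37 (SE 0.16, 95% interval 0.011 to 0.74) was not called (adjusted p = 0.13, limma). It was called with the arrays centered on their medians (log2 difference 0.57, adjusted p = 0.034, limma) and without NFFS replicate 1 (0.52, adjusted p = 0.043, limma). With Gjb2 and Gjb5, 3 of the 5 genes had all NFFSE arrays above all NFFS arrays, beside 18.5% of all genes.

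**Figure D1:**
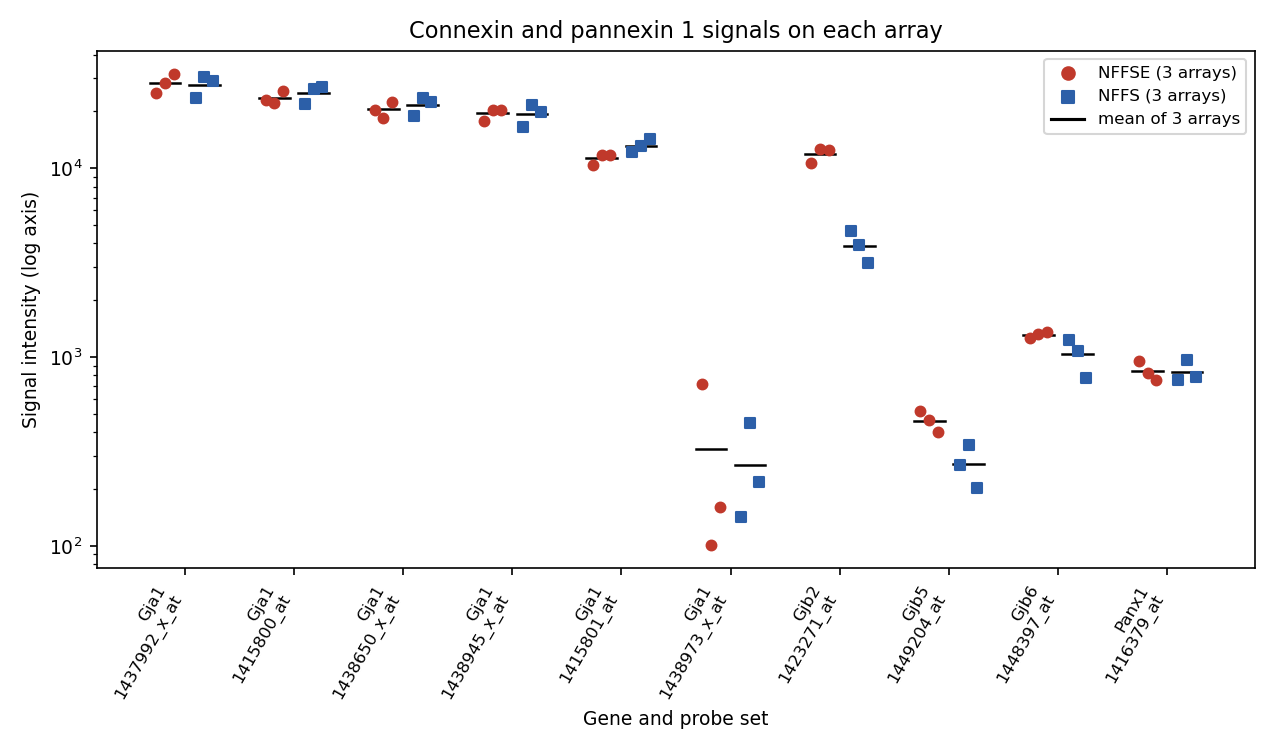
Signal intensity (vertical axis, logarithmic) of each member probe set, with 3 NFFSE arrays as red circles, 3 NFFS arrays as blue squares and the mean of each medium as a black line. The Gjb2 points part widely (10611 to 12589 in NFFSE and 3147 to 4626 in NFFS), whereas the points of the 5 brightest Gja1 probe sets lie side by side.

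Gja1, which encodes Cx43, had a signal that differed little between the media. Its brightest probe set gave 25118, 28365 and 31488 in NFFSE and 23614, 30565 and 29133 in NFFS, so that the arrays of the media overlapped over nearly their whole range. The log2 difference was 0.031 (SE 0.14, adjusted p = 0.91, limma), and its 95% interval of -0.27 to 0.34 spans NFFSE signals of 0.83 to 1.26 times those in NFFS. The sign of so small a difference depended on the scaling and the arrays, with -0.16 after quantile normalization and 0.23 with the arrays centered on their medians.

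Read one by one, the Gja1 probe sets gave like values. 1415800_at had a log2 difference of -0.084, 1438650_x_at of -0.079 and 1438945_x_at of 0.018. The lowest of these differences was that of 1415801_at, with a signal of 10466.5, 11701 and 11778 in NFFSE and 12218, 13085.5 and 14285 in NFFS and a difference of -0.22 on the log2 scale (SE 0.11, adjusted p = 0.22, limma over all probe sets). Its NFFSE arrays all lay below its NFFS arrays. After quantile normalization, 1415801_at (log2 difference -0.47, adjusted p = 0.0039, limma), 1438650_x_at (-0.32, adjusted p = 0.031, limma) and 1438945_x_at (-0.26, adjusted p = 0.031, limma) were called lower in NFFSE.

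The remaining Gja1 probe set, 1438973_x_at, was dim and uneven. It gave 716, 101 and 161 in NFFSE and 142, 448 and 218 in NFFS. A single NFFSE array was the brightest of the 6, and the other NFFSE arrays were within or below the range of NFFS, for a log2 difference of -0.083 with an SE of 0.63. The suffix _x_at marks probe sets whose probes may also match other transcripts. The brightest Gja1 probe set lay at percentile 99.8 of all probe sets by mean log2 signal, and the highest signal of any probe set was 32030.2 to 51337 on the 6 arrays. Fibroblasts also make Cx43. The summed signal of the fibroblast markers above, most of it Sparc, was lower in NFFSE, and Gja1 did not pass the test. The part of such cells in the Gja1 signal was not tested.

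Panx1, whose channels release ATP, also showed no difference beyond the spread between arrays. Its signal was 955, 825 and 754 in NFFSE and 752, 961 and 788 in NFFS, and the media overlapped. The log2 difference was 0.020 (SE 0.14, 95% interval -0.30 to 0.34, adjusted p = 0.94, limma). The interval spans NFFSE signals of 0.81 to 1.26 times those in NFFS.

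**Figure D2:**
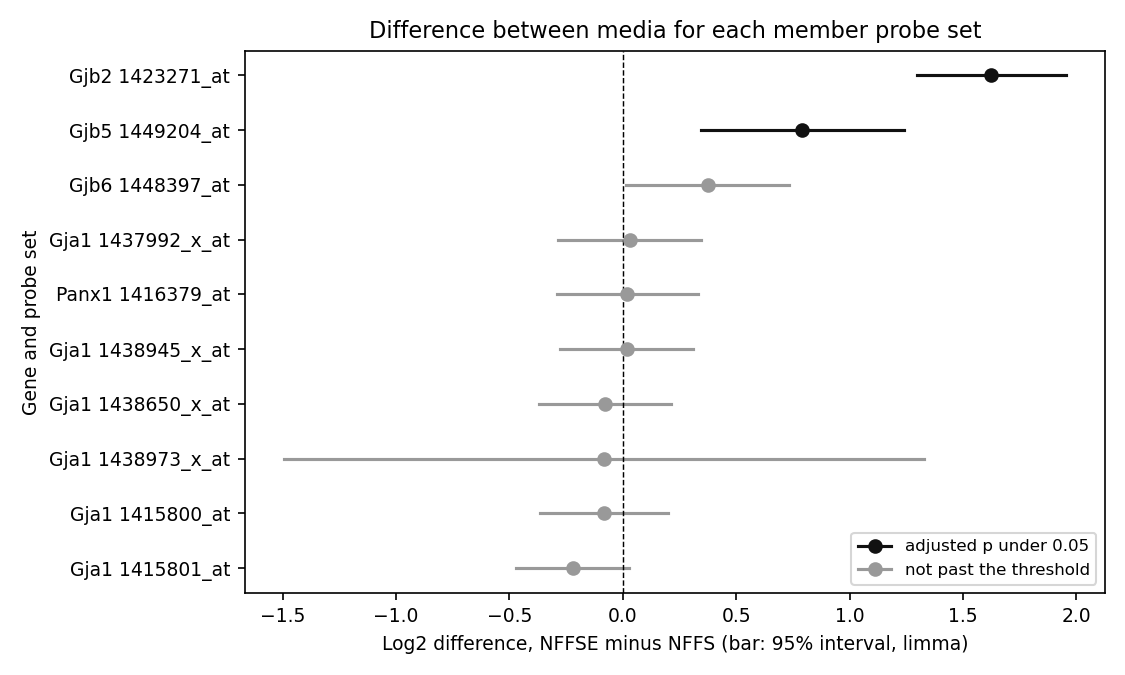
Log2 difference between the media (horizontal axis, NFFSE minus NFFS) for each member probe set, with the 95% interval of limma as a bar, in black where the adjusted p over all probe sets was under 0.05. Gjb2 (1.63) and Gjb5 (0.79) stand to the right of 0, and the 5 brightest Gja1 probe sets and Panx1 lie between -0.22 and 0.031.

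Whether members differed by unequal amounts between the media was tested on the log2 signal of one member minus that of another on the same array, which is free of the scaling of arrays. The difference Gja1 minus Gjb2 was 1.25 ± 0.081 with EGF and 2.84 ± 0.44 without it, which differ by -1.59. Gjb2 minus Gjb6, genes that lie side by side in the genome, was 3.18 ± 0.088 with EGF and 1.92 ± 0.086 without it, which differ by 1.25. Gjb2 minus Panx1 differed between the media by 1.61, Gjb2 minus Gjb5 by 0.83, Gjb5 minus Panx1 by 0.77 and Gja1 minus Gjb5 by -0.76. In each of these pairs the media did not overlap, with p = 0.1 in the two-sided exact permutation test, the smallest possible here, and 0.17 after adjustment over 10 pairs, so that no pair could pass the threshold. The media overlapped for Gjb5 and Gjb6 (0.42, exact p = 0.2), Gjb6 and Panx1 (0.35, exact p = 0.3), Gja1 and Gjb6 (-0.34, exact p = 0.4) and Gja1 and Panx1 (0.011, exact p = 1). Without NFFS replicate 1, Gja1 minus Gjb6 went to -0.60 and Gjb6 minus Panx1 to 0.57, and without NFFS replicate 3 they went to -0.11 and 0.20. Among the 15 pairs of Gja1 probe sets, the lowest p of the exact test was 0.1, or 0.6 after adjustment, for 1415801_at against 1437992_x_at (-0.25) and against 1438945_x_at (-0.24).

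**Figure D3:**
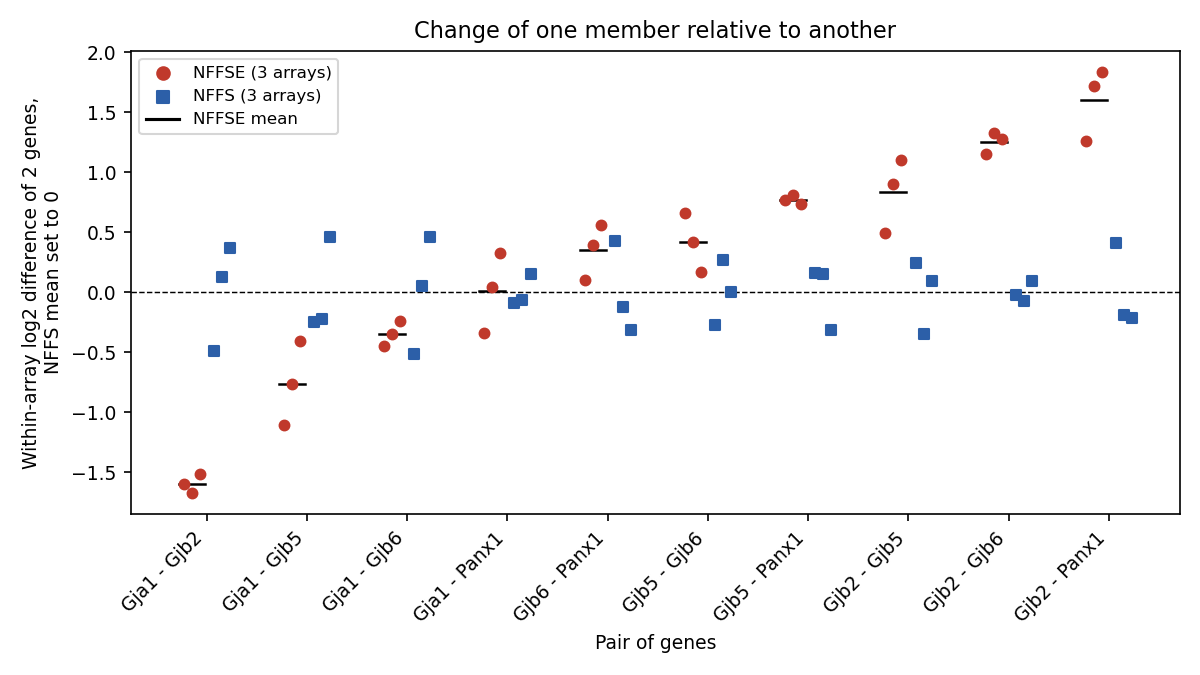
Within-array log2 difference of a pair of genes (vertical axis, with the NFFS mean set to 0) for 10 pairs, with NFFSE arrays in red, NFFS arrays in blue and the NFFSE mean as a black line. The pairs with Gjb2 part the media, from -1.59 for Gja1 minus Gjb2 to 1.61 for Gjb2 minus Panx1, while Gja1 minus Panx1 stays near 0.

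Genes whose log2 signals followed each member most closely over the 6 arrays were looked for by the root mean square of the difference between centered profiles, among genes in the upper signal range. For Gjb2 these were Mapk6, an atypical MAP kinase (0.089), and Socs2, a suppressor of cytokine signaling (0.10), with log2 differences between the media of 1.66 and 1.67. For Gjb5 they were Tmbim1 (0.056) and C9orf72 (0.090), and for Gjb6 Ptges3l (0.063) and Sptlc1, a subunit of the enzyme that starts sphingolipid synthesis (0.077). For Gja1 they were Ppib, a cyclophilin of the endoplasmic reticulum (0.051), and Tmsb10, an actin-binding thymosin (0.053), and for Panx1 Fcf1 (0.043) and Wdr20 (0.047). These are likenesses over 6 arrays in 2 media and are given as a description.

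Of 18 other connexins and pannexins, 12 were measured. Of these, 0 were called higher and 1, Gjc1, lower in NFFSE, beside 11.0% and 15.2% of all genes. Gjc1 encodes Cx45, known from smooth muscle and the conduction tissue of the heart, and it was lower in NFFSE. Its signal was 509, 281 and 329 in NFFSE and 1317, 1242 and 1406 in NFFS, with a wide gap between the media. The log2 difference was -1.87 (SE 0.20, adjusted p = 8.8e-05, limma), a 3.65-fold lower signal in NFFSE, and its other probe set gave -2.20 (adjusted p = 6.1e-05, limma over all probe sets). Acta2 was also called lower, as were 4 of the 10 fibroblast and dermal papilla genes (Sparc, Thy1, Col1a2 and Vim). Among those not called, the log2 differences were 1.40 for Pdgfra, 0.39 for Lum, 0.28 for Col1a1 and 0.062 for Col3a1. They were -0.48 for Pdgfrb and -0.85 for Dcn. The smooth muscle and pericyte markers other than Acta2 were not called and did not move one way. Their log2 differences were 0.39 for Cnn1, 0.23 for Rgs5, -0.19 for Des and -0.68 for Myh11. The part of such cells in the Gjc1 difference was not tested.

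The other 11 measured relatives did not pass the test, and their highest mean signal in either medium was 64.9. For 8 of the 12, both means were at or under 22.7, the highest signal of a control transcript absent from mouse cells, taken here as background. Gja4 (Cx37, a connexin of endothelium) stood highest among these 11, with 55.4, 84.5 and 54.8 in NFFSE and 41.1, 42.2 and 2.04 in NFFS (adjusted p = 0.18, limma). Its NFFSE arrays were all above its NFFS arrays, of which 1 was at background, and without that array, NFFS replicate 3, its log2 difference went from 2.06 to 0.61. Gja3 (Cx46), the other neighbor of Gjb2, had a signal of 22.8, 25.5 and 35.8 in NFFSE and 22.5, 13.9 and 23.2 in NFFS, close to background in both. The median log2 difference of the 12 was 0.063, beside -0.011 for all genes.

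Of 15 partners of gap junctions in the membrane and cytoskeleton and in trafficking, 14 were measured, of which 2 were higher and 2 lower in NFFSE, beside 11.0% and 15.2% of all genes, and 10 did not pass the test. The median log2 difference was 0.045. Dbn1, which encodes drebrin, an actin-binding protein that links Cx43 to the cytoskeleton, was lower in NFFSE, from 956, 852 and 1154 in NFFS to 73.8, 47.3 and 122 in NFFSE (log2 difference -3.70, adjusted p = 2.0e-05, limma). Its other probe set gave a log2 difference of -4.03 on the same arrays (adjusted p = 0.0013, limma over all probe sets), with 1 NFFSE array at background. Cttn, which encodes cortactin, a regulator of branched actin, was 1.47-fold higher (adjusted p = 0.0027, limma), and 4 of its 5 probe sets were called higher.

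Cav1, the main protein of caveolae, was 1.47-fold lower in NFFSE (11456 ± 2148 against 16709 ± 1617 in NFFS, adjusted p = 0.015, limma), a call that ended without NFFSE replicate 2 (0.078) or 3 (0.072) and with the arrays centered on their medians (0.14), the floor at background (0.072), no intensity trend (0.096) or the methods' t-test (0.11). Ezr, the membrane-to-actin linker ezrin, was 1.32-fold higher (adjusted p = 0.019, limma). The call of Ezr ended without NFFSE replicate 1 (0.074) or 3 (0.075), without NFFS replicate 1 (0.055) and with the mean of its 2 probe sets (0.22), quantile normalization (0.065), no intensity trend (0.10) or the methods' t-test (0.064). Tjp1, the scaffold ZO-1 that binds the tail of Cx43, had a log2 difference of -0.042 (adjusted p = 0.88, limma). Cdh1 and Ctnnb1, which encode E-cadherin and beta-catenin of the adherens junctions beside which gap junctions form, gave -0.067 (adjusted p = 0.71) and -0.021 (adjusted p = 0.92, both limma). These 3 were chosen after their values were seen, as the best-known partners that were not called.

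Of 19 kinases and turnover factors of Cx43, 17 were measured, of which 1 was higher and 2 were lower in NFFSE by their brightest probe set, beside 11.0% and 15.2% of all genes. Those called were Prkcd, Nedd4 and Prkca, and the direction of Prkcd and Prkca turned with the mean of their probe sets. Nedd4, a ubiquitin ligase that binds Cx43, was lower in NFFSE, at 5412 ± 632 against 7340.4 ± 467 in NFFS (log2 difference -0.44, adjusted p = 0.015, limma). That call ended without NFFSE replicate 1 (0.068) or 3 (0.052) and with the arrays centered on their medians (0.21), no intensity trend (0.094) or the methods' t-test (0.074). Its other probe sets gave -0.68 (adjusted p = 0.0049) and -0.38 (adjusted p = 0.058, both limma over all probe sets). Prkca and Prkcd encode isoforms of protein kinase C, which phosphorylates Cx43. By its brightest probe set, Prkcd was 1.32-fold higher (adjusted p = 0.030, limma), with a call that ended when any 1 of 5 arrays was left out (adjusted p of 0.065 to 0.10; all but NFFS replicate 1), by the methods' t-test (0.071) and with no intensity trend (0.11). Its other probe set gave a log2 difference of -0.61 (adjusted p = 0.37, limma over all probe sets), and averaging both turned the difference from 0.40 to -0.10.

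The probe sets of Prkca did not move one way. Its brightest one was 1.98-fold lower in NFFSE (adjusted p = 0.018, limma), a call that ended without NFFS replicate 1 (0.074) and with the floor at background (0.096), no intensity trend (0.090) or the methods' t-test (0.14). Another, 1427562_a_at, was called higher (log2 difference 2.39, adjusted p = 0.015, limma over all probe sets). It gave 31.6, 42.6 and 39.6 in NFFSE and 9.15, 5.27 and 7.64 in NFFS, with all 3 NFFS arrays at background. The remaining one, 1450945_at, was not called (0.41, adjusted p = 0.24, limma over all probe sets). Averaging the Prkca probe sets reversed the log2 difference from -0.99 to 0.60. No direction is given for Prkca or Prkcd on this account. Src, the tyrosine kinase that phosphorylates Cx43 and closes its channels, had a log2 difference of 0.33 (adjusted p = 0.19, limma). Over the 17 genes the median difference was 0.046.

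Channels of pannexin 1 and connexin hemichannels release ATP, which acts on purinergic receptors and is broken down to adenosine outside the cell. Of 31 genes of this system, 25 were measured, of which 3 were higher and 2 lower in NFFSE, beside 11.0% and 15.2% of all genes, and 20 did not pass the test. P2rx7, the ATP-gated channel that works with pannexin 1, was 4.16-fold lower, from 509, 362 and 333 in NFFS to 95.1, 94.5 and 94.8 in NFFSE (adjusted p = 7.9e-05, limma). A second probe set gave a log2 difference of -1.59 (adjusted p = 0.0060) and 1422218_at gave 0.061 (adjusted p = 0.92, both limma over all probe sets), so that the mean of its probe sets was -1.20.

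Nt5e, the ectonucleotidase CD73 that makes adenosine from AMP, was 2.59-fold higher in NFFSE. Its signal was 823, 642 and 729 in NFFSE and 231, 347 and 276 in NFFS (adjusted p = 3.1e-04, limma), with no overlap, and of its other probe sets 1422974_at was also called higher (log2 difference 1.93, adjusted p = 5.8e-04, limma over all probe sets) while the dim 1459023_at was not (-0.20, adjusted p = 0.88). Ada, adenosine deaminase, which removes adenosine, was 1.97-fold higher (754 ± 55.8 against 388 ± 78.7 in NFFS, adjusted p = 0.0015, limma). Slc29a1, a transporter that carries adenosine across the membrane, was 1.92-fold lower (711 ± 136 against 1352 ± 105 in NFFS, adjusted p = 9.4e-04, limma).

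P2ry1, a receptor for ADP and the remaining gene called, was named after its value was seen. It was 1.46-fold higher (adjusted p = 0.049, limma), and the call ended without any 1 of the NFFSE arrays (0.082, 0.14 and 0.13) and without NFFS replicate 1 (0.12), which took the log2 difference from 0.54 to 0.34. The floor at background (0.12), averaged probe sets (0.055), 16 added to the signals (0.052), no intensity trend (0.14) and the methods' t-test (0.18) ended it too. The median log2 difference of the 25 genes was 0.41, beside -0.011 for all genes, and 3 of them had both means at background. The gene at this median was the dim Entpd8, which was not called (adjusted p = 0.71, limma). It gave 45.2, 14.7 and 61.5 in NFFSE and 47.7, 20.5 and 17.7 in NFFS, with 1 NFFSE array and 2 NFFS arrays at background. Several other uncalled genes of the list also had arrays at background, so that the median rests in part on dim signals.

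**Figure D4:**
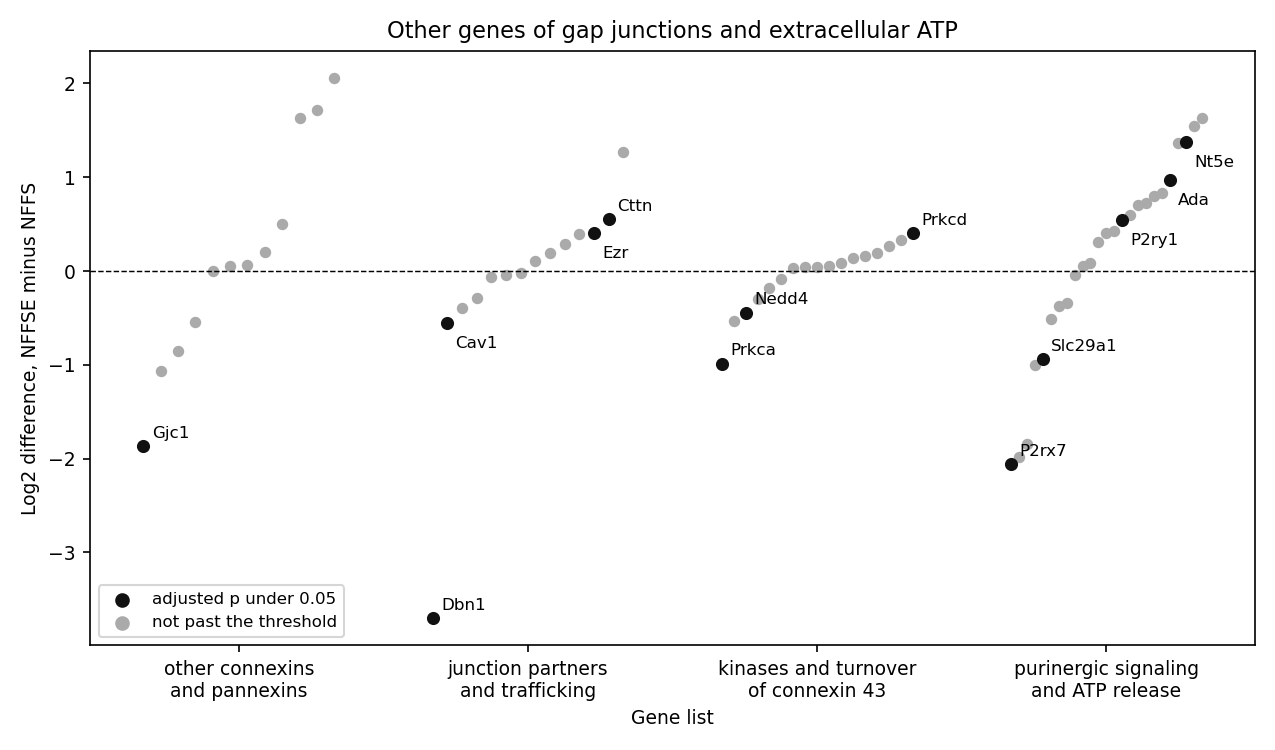
Log2 difference between the media (vertical axis, NFFSE minus NFFS) of the measured genes of 4 lists, ordered by value within each list, with genes past the threshold in black and named. Gjc1 (-1.87), Dbn1 (-3.70) and P2rx7 (-2.06) lie lowest among the named genes of their lists, and the unnamed connexins and pannexins had mean signals of 64.9 or less.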

How the data were processed

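Total RNA, 100 ng for each array, was hybridized to Affymetrix Mouse Genome 430 2.0 arrays. The authors deposited intensity values (MAS5 signals, per the labels with no version) on a linear scale, scaled so that the mean of each array without the lowest and highest 2% was the same, which was checked on the values. The methods name GeneChip Command Console and Transcriptome Analysis Console and a two-tailed Student test, which was run as an alternative (the methods' t-test). Of 45101 probe sets, 64 controls were left out, 34945 had 1 symbol, 932 had several and 9160 had none listed. By gene number, 34741 matched RefSeq genes of GRCm38.p6 and 0 symbols changed.

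A linear model of log2 signals was run in limma 3.58.1 under R 4.3.3 (intensity trend, no block), over genes (the probe set with the highest mean) and over the 45037 probe sets. The number of arrays limits the precision. The script was tested on simulated data. Members, lists and motifs were chosen with earlier results of these data known. The genes named are the members, called relatives and genome neighbors, up to 4 genes of each other list by smallest p and, for each member, the 2 genes with the closest profile (among genes not under percentile 60 of the signal in their higher medium). Gja4, Tjp1, Cdh1, Ctnnb1 and P2ry1 were added, and the background level was set, after the values were seen. Alternatives changed the summary of probe sets, the scaling, a floor, an amount added to signals, a filter on dim features, the trend and the test, and left out each array in turn. The replicate number was used as a block in 1 alternative.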

Additional observations from a re-analysis of the deposited data

How the results depend on the processing

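Gjb2 was called higher in NFFSE under all 15 alternatives, and so were Cttn, Nt5e and Ada, while Gjc1, Dbn1, P2rx7 and Slc29a1 were called lower under all 15. Gjb5 stayed at a log2 difference of 0.79 but was not called with a floor at the highest TrpnX control signal (adjusted p = 0.071, limma), with no intensity trend (0.076) or by the methods' t-test (0.11), and it was 0.60 to 0.97 without 1 array. Gjb6 was called with centered arrays (0.57) and was 0.18 to 0.52 without 1 array. The difference of Gja1 turned to -0.070 with the mean of all probe sets and to -0.16 with quantile normalization, and was -0.081 to 0.11 without 1 array (-0.048 without NFFSE replicate 3, -0.081 without NFFS replicate 1). Panx1 was -0.072 to 0.13 without 1 array (-0.072 without NFFSE replicate 1, -0.050 without NFFS replicate 1, -0.017 without NFFS replicate 3). Gja1 minus Panx1 turned to -0.089 with the mean of all probe sets and was -0.15 to 0.19 without 1 array. Of the Gja1 probe sets, centered arrays turned 1415800_at to 0.12, 1438650_x_at to 0.12 and 1438973_x_at to 0.12, and quantile normalization turned 1438945_x_at to -0.26 and 1438973_x_at to 0.067. Without 1 array, 1438945_x_at was -0.091 to 0.10 and 1438973_x_at was -0.91 to 0.50. The mean of all probe sets turned Gja3 to -0.095, Prkcd to -0.10 and Prkca to 0.60. Of the junction partners, 2 higher became 4 with centered arrays and 1 with the mean of all probe sets, quantile normalization, no intensity trend or the methods' t-test, and 1 to 4 without 1 array. The 2 lower became 1 with centered arrays, the floor, no intensity trend or the methods' t-test, and 1 to 2 without 1 array. Of the kinases and turnover factors, the 1 higher became 0 with no intensity trend or the methods' t-test, and 0 to 1 without 1 array. The 2 lower became 1 with centered arrays or the floor, 0 with no intensity trend or the methods' t-test, and 1 to 2 without 1 array. The cause of these turns was not tested. Centering the arrays moved the median difference of all genes from -0.011 to 0.19, and the genes called from 2002 higher and 2771 lower to 2916 and 1784. The counts were 1323 and 1928 with no intensity trend and 1262 and 1702 by the methods' t-test.

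The cells of each experiment were split between the media, but the labels do not say that a replicate number marks one experiment. Deviations from the group means correlated at 0.066, 0.042 and 0.037 between arrays of the same number. Each array correlated best with its own number among arrays of the other medium. The deviations cancel within each medium, so that these correlations are not independent of each other, and they were not tested. The match is a weak hint from the data, and not from the labels, on which arrays share an experiment. With the replicate number as a block, genes called went from 2002 higher and 2771 lower to 2171 and 2967, and the 5 members kept their side of the threshold (Gjb2 1.63, adjusted p = 2.9e-05, Gjb5 0.79, 0.0062, Gjb6 0.37, 0.093, Gja1 0.031, 0.88, Panx1 0.020, 0.94, limma).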
